A study of Homo sapiens with 4 samples.

Results

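The microRNAs (miRNAs) hsa-miR-103a-3p and hsa-miR-107 are close paralogues, and their entries were taken by name from a table of 843 mature miRNA names, so that 2 of 843 entries are described here. miR-103a-3p was chosen by its high count and its lower value with the positive probe in both cell lines, and miR-107 as its paralogue. The comparison of the probes is therefore given as a description, with no test. miRNA-sequencing was performed after an RNA pull-down in the human gastric cancer cell lines HGC27 and AGS, both of which stably overexpressed the FN1 3′-UTR, the untranslated end of the fibronectin mRNA, from a lentivirus. Biotinylated RNA made in vitro, called antisense in the authors' methods, was coupled to streptavidin beads. Lysate was added, and what stayed bound through the washes was sequenced. The probe for the FN1 3′-UTR was either positive or negative, which gave 4 groups of 1 library each: HGC27 negative, HGC27 positive, AGS negative and AGS positive. The protocol names an RNA and its antisense but does not say which of them each probe is, no cells without the overexpression were included here, and no group had a replicate.

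A miRNA guides Argonaute proteins to mRNAs, mainly through its seed, the bases 2 to 8 from its 5′ end, and lowers their translation and stability. miR-103a and miR-107 are made from introns of the pantothenate kinase (PANK) genes, whose proteins catalyse the first step of coenzyme A synthesis. They are known as regulators of insulin sensitivity and of DICER1, the nuclease that cuts miRNA precursors. With miR-15, miR-16, miR-195, miR-424, miR-497, miR-503 and miR-646 they form the miR-15/miR-107 group, whose members share the letters AGCAGC near the 5′ end.

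The mature sequences of both miRNAs are shown first because their near identity bears on every count below. The capitals mark the seed.
miR-103a-3p: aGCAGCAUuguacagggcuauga
miR-107: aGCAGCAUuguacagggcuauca
Both are 23 bases long, share the seed GCAGCAU and have a G and C content of 47.8%. They differ at 1 position, G22C, counted from the 5′ end with the base of miR-103a-3p first. The first 21 bases are identical, so a read that ends before base 22 cannot be told apart between them, and how the authors assigned such reads is not stated. No other entry of the table came within 2 mismatches of either sequence, and miR-103b was not listed.

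In RefSeq (GRCh38.p14), miR-103a-3p is encoded by 2 hairpins. MIR103A1 lies on chromosome 5 from 168560896 to 168560973 on the minus strand, and MIR103A2 on chromosome 20 from 3917494 to 3917571 on the plus strand. MIR107 lies on chromosome 10 from 89592747 to 89592827 on the minus strand. The hairpins sit in introns of PANK3, PANK2 and PANK1 respectively, each on the strand of its host, and in the GENCODE 29 annotation each was in intron 5 of the 6 introns of the longest coding transcript. The hairpins were 80.8% (MIR103A1 and MIR103A2), 79.0% (MIR103A1 and MIR107) and 85.2% (MIR103A2 and MIR107) identical over their alignments. The counts of miR-103a-3p were listed once for each of its hairpins with the same values, so the output of PANK3 and PANK2 could not be told apart. The opposite arms of the miR-103a hairpins, printed here because they would have been the marks that separate the hairpins, had no entry among those used here.
miR-103a-1-5p: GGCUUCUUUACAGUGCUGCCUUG
miR-103a-2-5p: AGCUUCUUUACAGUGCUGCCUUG

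The libraries held between 1296853 and 2955078 miRNA counts and listed between 342 and 609 entries. Composition differed between them. miR-372-3p took 80.8% and 37.5% of the counts in the AGS negative and positive libraries and at most 0.300% in HGC27, and the let-7 family took 8.87% and 37.3% in HGC27 and 1.18% and 40.0% in AGS (negative and positive probe). The 6 epithelial miRNAs checked against the labels (the miR-200 family, miR-141-3p, miR-429 and miR-203a-3p) summed to 10294 and 821 tags per 1000000 (TPM, rounded by the authors) in AGS and to 780 and 371 in HGC27 (negative and positive probe), while 4 or 5 of the 6 blood cell miRNAs checked were at 0 in each library. Of the neural markers miR-124-3p was at 0 in every library, and miR-9-5p alone gave 726 and 1690 in HGC27 and 1 and 4 in AGS. The gut epithelial, muscle and liver lists summed to at most 226 in any library. Their part in the results below was not tested.

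miR-103a-3p was among the most abundant miRNAs with the negative probe and far lower with the positive probe in both lines. It had 57783 counts with the negative and 3863 with the positive probe in HGC27, and 12184 and 802 counts in AGS. In the deposited TPM these were 19879, 1398, 1697 and 188. The negative probe library was the higher of its line each time, and HGC27 was above AGS with either probe on this scale.

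The rank of miR-103a-3p among the entries of a library moved from 4 of 574 to 35 of 609 in HGC27 and from 11 of 342 to 34 of 361 in AGS. Its share of the miRNA counts was 3.98% (exact 95% CI 3.95 to 4.01) and 0.298% (0.289 to 0.307) in HGC27, and 0.412% (0.405 to 0.420) and 0.0525% (0.0489 to 0.0563) in AGS. These intervals, like all intervals below, cover counting error only, since reads without molecular identifiers are not independent molecules and no replicate gave the spread between libraries.

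The ratio of miR-103a-3p, its TPM + 1 with the positive over that with the negative probe, was 0.0704 in HGC27 and 0.111 in AGS, or log2 values of -3.83 and -3.17. From the counts it was 14.2-fold lower in HGC27 (exact 95% CI 13.8 to 14.7) and 9.04-fold lower in AGS (8.42 to 9.72). A ratio of at most 0.5 is called depleted here, which held for 30.0% of the 453 entries with at least 10 counts over the libraries in HGC27, for 21.0% in AGS and for 13.5% in both lines. Of these 453 entries, 6 had a lower ratio than miR-103a-3p in HGC27 and 16 in AGS. Many of the 453 entries had few counts in AGS, where only 244 had at least 10. The 16 that lay lower in AGS were all among these 244. Among entries with at least 1000 counts in the negative library of the line, 3 of 64 lay lower in HGC27 and 8 of 40 in AGS.

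miR-107 followed the same direction at a far lower level. It had 562 counts with the negative and 90 with the positive probe in HGC27, which were 193 and 33 TPM. In AGS it had 75 and 4 counts, which were 10 and 1 TPM. The positive probe library was the lower one in both lines, and the 4 counts in AGS left its level there poorly fixed.

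The ratio of miR-107 was 0.175 in HGC27 and 0.182 in AGS, or log2 values of -2.51 and -2.46. From the counts it was 5.94-fold lower in HGC27 (exact 95% CI 4.74 to 7.5) and 11.2-fold lower in AGS (4.18 to 42.0). The ratio in AGS understates the difference in counts, because at 1 TPM the added 1 weighs as much as the value. With 10 added in its place the log2 ratio in AGS was -0.86.

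**Figure D1:**
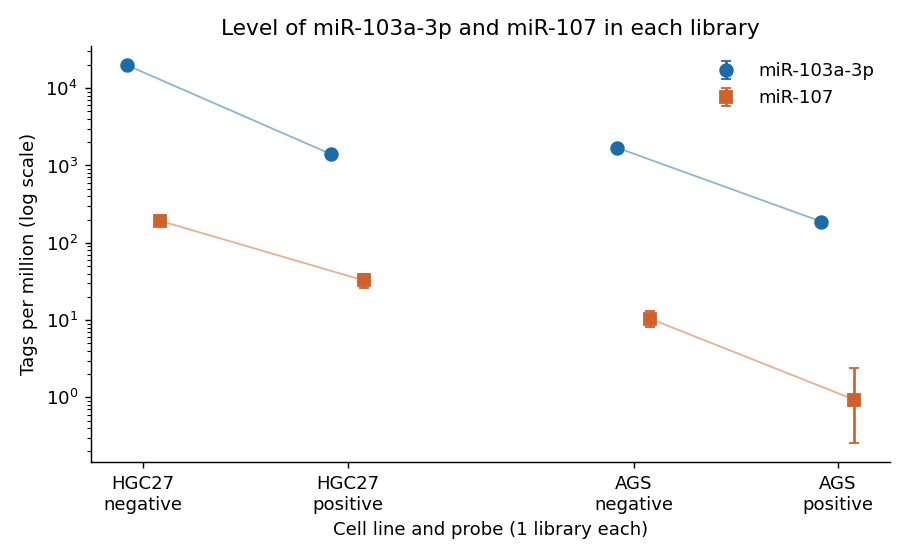
The y axis gives TPM on a log scale and the x axis the 4 libraries, with circles for miR-103a-3p, squares for miR-107 and bars for exact 95% counting intervals. Both miRNAs lie lower with the positive probe in both lines, and only miR-107 in AGS positive, at 4 counts, has a wide interval.

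The paralogues were set against each other within each library, which does not depend on how the libraries are scaled. The share of miR-107 in the counts of the pair was 0.963% in HGC27 negative (exact 95% CI 0.886 to 1.05) and 2.28% in HGC27 positive (1.83 to 2.79). It was 0.612% in AGS negative (0.482 to 0.766) and 0.496% in AGS positive (0.135 to 1.27). The share was higher with the positive probe in HGC27 and slightly lower in AGS, where it rested on 4 counts of miR-107. Since miR-103a-3p was chosen by its probe ratio, these shares are a description.

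There were 103 counts of miR-103a-3p for each count of miR-107 in HGC27 negative, 42.9 in HGC27 positive, 162 in AGS negative and 200 in AGS positive. In HGC27 the log2 count ratio of miR-107 lay 1.26 above that of miR-103a-3p (approximate 95% counting interval 0.94 to 1.58), so that its count ratio was 2.4-fold that of miR-103a-3p. In AGS the difference was -0.30, with an interval of -1.76 to 1.15. These intervals give the counting precision of single libraries, and neither a difference between the paralogues nor one between the lines was tested.

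**Figure D2:**
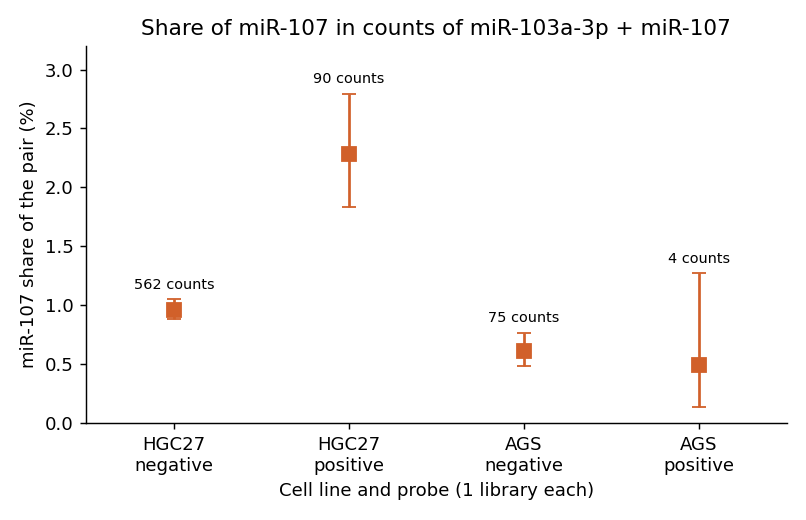
The y axis gives the share of miR-107 in the counts of miR-103a-3p and miR-107 together, in percent, for each library on the x axis, with exact 95% binomial intervals and the miR-107 counts above them. HGC27 positive, at 2.28%, stands above the other libraries, which lie between 0.496% and 0.963%.

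The other members of the miR-15/miR-107 group share AGCAGC, which starts at base 1 in miR-103a-3p and miR-107 and at base 2 in the others, so the seeds are shifted by 1 base. Those with an entry are printed with AGCAGC in capitals to show how far they resemble the pair.
miR-15a-5p: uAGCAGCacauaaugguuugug
miR-15b-5p: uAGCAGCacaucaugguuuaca
miR-16-5p: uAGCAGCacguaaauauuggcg
miR-195-5p: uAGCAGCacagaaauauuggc
miR-424-5p: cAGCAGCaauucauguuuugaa
miR-497-5p: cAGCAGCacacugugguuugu
miR-503-5p: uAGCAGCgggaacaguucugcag

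Of these 8 other members, 7 had an entry (miR-646 had none), and 6 of them had at least 10 counts over the libraries. In HGC27, 5 of the 6 were depleted, against 30.0% of all entries, and 0 were enriched (a ratio of at least 2, against 27.4%), with a median log2 ratio of -2.17 against 0.00 over all 453 entries. In AGS, 2 of the 6 were depleted, against 21.0% of all entries, and 0 enriched, against 28.9%, while 2 had no count, and the median was 0.00 as for all entries. Only miR-15b-5p and miR-16-5p had at least 10 counts in AGS, and both were depleted there, with a median of -4.50 against 0.42 over the 244 entries with at least 10 counts in that line, of which 29.5% were depleted.

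miR-15b-5p, a member hosted by SMC4 and known to repress BCL2 together with miR-16, had 1228 and 228 counts in HGC27 (log2 ratio -2.33) and 451 and 4 in AGS (-5.0). miR-16-5p, its cluster partner, had 414 and 66 counts in HGC27 (-2.52) and 109 and 2 in AGS, a count ratio of 0.0308 in AGS with an exact 95% CI of 0.00369 to 0.114. In HGC27 both lay close to miR-107, and in AGS both had a lower log2 ratio than either PANK miRNA.

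The remaining members were rare. miR-195-5p had 55 and 19 counts in HGC27 (log2 ratio -1.32), miR-424-5p had 48 and 4 (-3.17), miR-503-5p had 31 and 6 (-2.0), and miR-15a-5p had 16 and 8 (-0.81, not depleted). miR-497-5p had 3 counts in HGC27 negative alone. None of these 5 had more than 3 counts in an AGS library.

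The counts in the AGCAGC group came mostly from miR-103a-3p. Its 12 entries, 11 distinct sequences with miR-6838-5p and a predicted sequence listed under 2 names included, summed to 4.14% of all counts in HGC27 negative, 0.333% in HGC27 positive, 0.434% in AGS negative and 0.0533% in AGS positive. miR-103a-3p made up between 89.5% (HGC27 positive) and 98.5% (AGS positive) of these sums.

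**Figure D3:**
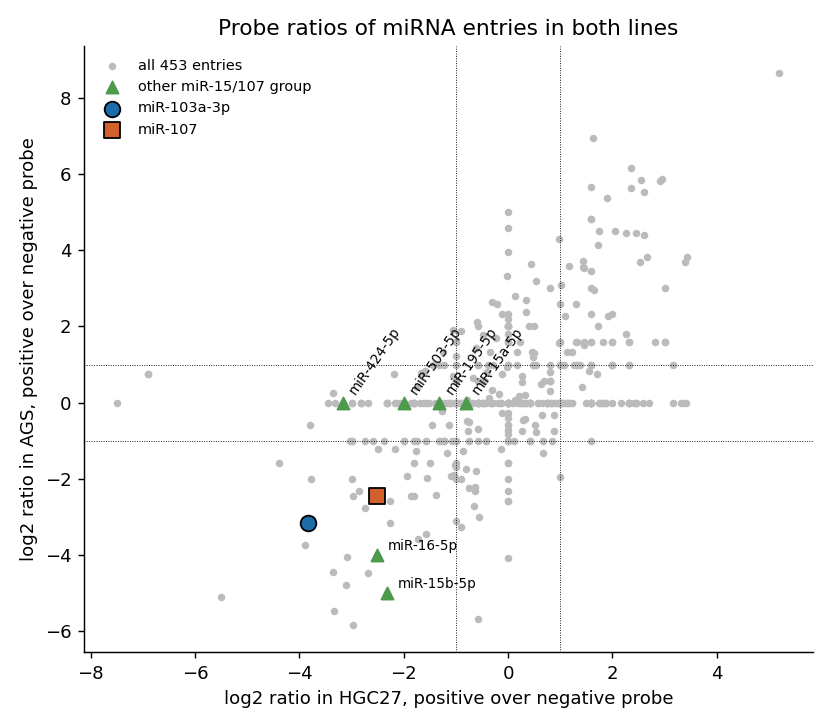
Each point is a miRNA entry with at least 10 counts over the libraries (453), with its log2 ratio of positive over negative probe in HGC27 on the x axis and in AGS on the y axis, and dotted lines at ratios of 0.5 and 2. miR-103a-3p, miR-107, miR-15b-5p and miR-16-5p lie in the lower left corner, while the 4 other members of the group sit at 0 in AGS, where they had few or no counts.

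The miRNAs with the profile nearest to the pair were found by the root mean square difference of log2 (TPM + 1), centred over the 4 libraries, among 359 other known miRNAs. For miR-103a-3p the nearest was miR-140-3p (0.25), a cartilage miRNA from an intron of WWP2, with 415 and 30 TPM in HGC27 and 24 and 2 in AGS. It was followed by miR-19a-3p (0.44), miR-106b-5p (0.54), miR-320a-3p (0.63) and miR-16-5p (0.65). miR-107 itself came 7th in this order, with a difference of 0.69. As miR-107 was at 10 and 1 TPM in AGS, rounding and the added 1 weigh on that place. From the counts its log2 ratio in AGS was -3.48, against -3.18 for miR-103a-3p. The place of miR-19a-3p rested on 157 and 8 counts in HGC27 and 25 counts and a blank in AGS.

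For miR-107 the nearest was miR-106b-5p (0.18), a miRNA of the MCM7 intron, with 592 and 68 counts in HGC27 and 75 and 6 in AGS. miR-107 had 562 and 90 counts in HGC27 and 75 and 4 in AGS, so the counts were equal in AGS negative and differed in the other libraries. In AGS positive both were rounded to 1 TPM, which adds to their likeness. miR-93-5p (0.37) from the same intron, miR-484 (0.38), miR-148b-3p (0.46) and miR-140-3p (0.52) followed, and miR-103a-3p came 13th. The profile is a description over 4 libraries that share their probes and lines, and many depleted entries resemble each other in it.

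Among these neighbours, miR-16-5p is printed above and holds AGCAGC from base 2. Of the others, 4 are printed with the seed in capitals, to set it beside the seed GCAGCAU of the pair, which none of them has.
miR-140-3p: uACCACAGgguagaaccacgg
miR-106b-5p: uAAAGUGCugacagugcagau
miR-93-5p: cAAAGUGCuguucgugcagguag
miR-320a-3p: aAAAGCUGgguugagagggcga

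Since miR-103a and miR-107 come from introns, 27 other miRNAs from introns of protein-coding genes were counted as well. Of these, 24 had at least 10 counts, among them miR-15b-5p, which is in both lists. In HGC27 12 were depleted and 3 enriched, against 30.0% and 27.4% of all entries, with a median log2 ratio of -0.97. In AGS 15 were depleted and 5 enriched, against 21.0% and 28.9% of all entries, with a median of -1.11. The median over all 453 entries was 0.00 in each line. These 453 include entries with few or no counts in a line. With at least 10 counts in the line, 12 of 23 were depleted in HGC27, against 31.9% of 398 entries. In AGS 14 of 23 were, against 29.5% of 244 entries. The medians were then -1.08 against -0.02 in HGC27 and -1.22 against 0.42 in AGS. The share depleted in both lines was not taken with this filter. Depletion in both lines held for 11 of the 24, against 13.5% of all entries, such as miR-28-3p of LPP (-3.89 in HGC27 and -3.75 in AGS) and miR-330-3p of EML2 (-3.33 and -5.48), while miR-98-5p, a let-7 family member in HUWE1, was enriched in both (2.26 and 4.46). Intronic miRNAs thus lay on both sides.

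The FN1 3′-UTR was searched for the reverse complement of the seeds, in the annotated transcript used here (1101 bases after the stop codon). The letters ATGCTGC, which pair with bases 2 to 8 of miR-103a-3p and miR-107, occurred 0 times on the sense and 0 times on the antisense strand. Among the first 1101 bases of the 3′-UTRs of 9574 genes, 9.20% held them on the sense and 7.82% on the antisense strand. The 6 letters TGCTGC within this motif, which pair with bases 2 to 7, also occurred 0 times on both strands, against 36.7% and 30.1% of the windows. The same held for TGCTGCT, which pairs with the seed of miR-15b-5p and miR-16-5p and overlaps the other motifs (17.6% and 12.7% of the windows). Both longer motifs hold TGCTGC, so their absence follows from its absence and adds no separate result. These letters were not in this window, and nothing follows from that about pairing elsewhere in the miRNAs.

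The size of the probe ratios depended on how the libraries were scaled, most of all in AGS, where miR-372-3p took most of the negative probe counts. Against the median of the entries with at least 10 counts in the line (398 in HGC27 and 244 in AGS), which was -0.02 in HGC27 and 0.42 in AGS, miR-103a-3p lay at -3.81 and -3.58 and miR-107 at -2.49 and -2.87. On totals that omit miR-372-3p the AGS ratios were -4.68 for both miRNAs and the AGS median was -0.76, so miR-103a-3p lay at -3.92 from it. Under TMM, trimmed mean scaling, taken over all 843 entries, the AGS ratios were -3.89 and -3.91 with a median of 0.01. The split of depleted against enriched entries in AGS was 29.5% against 38.9% on the deposited scale, 37.3% against 34.0% under TMM and 47.1% against 26.6% without miR-372-3p. Both miRNAs were lower with the positive probe under every scaling tried.

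**Figure D4:**
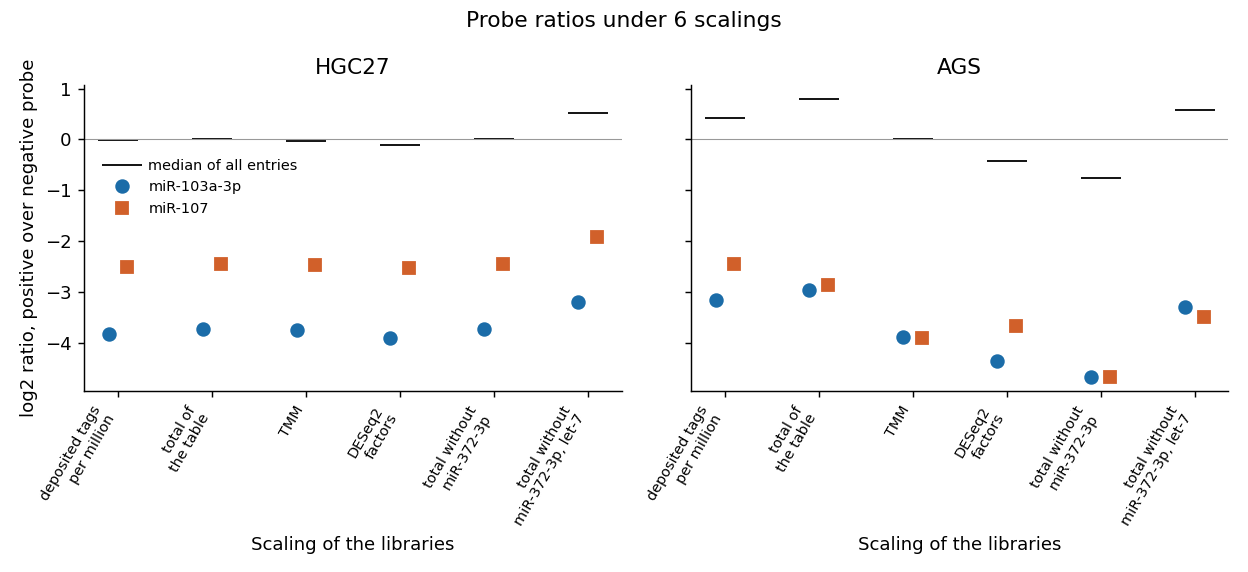
The y axis gives the log2 ratio of positive over negative probe under 6 scalings of the libraries on the x axis, in HGC27 (left) and AGS (right), with circles for miR-103a-3p, squares for miR-107 and black lines for the median of the entries with at least 10 counts in the line. In AGS miR-103a-3p ranges from -2.97 to -4.68, and both miRNAs stay below the median under each scaling.

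The lines were compared within each probe and then over both probes, a contrast by which the pair was not chosen. From the counts over the authors' divisors, miR-103a-3p was 11.7-fold higher in HGC27 than in AGS with the negative probe (exact 95% CI 11.5 to 11.9) and 7.45-fold higher with the positive probe (6.90 to 8.05). miR-107 was 18.5-fold higher with the negative probe (14.5 to 23.9) and 34.8-fold higher with the positive probe (13.1 to 130). TMM was taken here over the 271 entries kept for the line test, not over the 843 used for the probe ratios, so its factors differ. After this scaling miR-103a-3p had 15990 counts per 1000000 in HGC27 negative and 15100 in AGS negative, and 1275 and 837 with the positive probe. For miR-107 these were 155.5, 92.96, 29.7 and 4.174 in the same order.

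edgeR's quasi-likelihood test with the probe as covariate called neither of them between the lines. The log2 difference of HGC27 minus AGS was 0.34 ± 1.40 SE for miR-103a-3p (adjusted p 0.871 in edgeR; 0.0707 to 0.957 under the alternatives) and 1.63 ± 1.15 SE for miR-107 (adjusted p 0.321 in edgeR), with a median of 0.63 over all 271 entries tested, of which 29.9% were called. With library totals in place of TMM that median was 3.17, and miR-107 was called, with a difference of 4.26 (adjusted p 0.00701 in edgeR; 0.187 to 0.573 under the other alternatives). The direction for miR-103a-3p turned with DESeq2 size factors, to -0.10, and was -0.02 without the HGC27 positive library. Both probe libraries of a line served as its replicates with 1 residual degree of freedom, and no source says that they came from separate cultures. With the probe in the model, that residual is how far the line difference varied between the probes. In edgeR its size was pooled over the entries tested rather than taken from each miRNA, as the prior degrees of freedom were infinite. These p-values therefore cannot be taken to measure a spread between cultures.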

How the data were processed

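Raw counts for mature miRNAs were deposited by the authors beside a normalized score, tags per 1000000, which they rounded to whole numbers. The submitters' processing notes name cutadapt 1.9.3, Novoalign 3.02.12 and hg38, and the miRNA database release is not given in the sources used here. The table had 1 row per pair of mature miRNA and precursor, and its 901 rows were collapsed to 843 names (570 known, 273 predicted). The lowest count was 2, and a blank was taken as 0. The divisors recovered from the counts and the score were 2763267 to 7179129 tags, of which the table's totals were 35.7% to 50.0%.

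Ratios used the deposited score + 1, and their exact 95% intervals used the counts and these divisors. The interval of the difference between the paralogues is a normal approximation on the log counts. The lines were compared with edgeR 4.0.16 (R 4.3.3; TMM, filterByExpr, Benjamini-Hochberg adjustment), a step tested on simulated data, with DESeq2 1.42.0 as an alternative. The simulated libraries shared a composition apart from the line changes set and had no probe effect. They therefore do not cover the shifts in composition seen here. The prior degrees of freedom were infinite and the common biological coefficient of variation was 0.612. The SE printed with each edgeR difference was back-calculated from that difference and the F statistic of its test. Named besides the pair were near-identical entries, the other arms, the miR-15/miR-107 group and the 5 nearest profiles of each. Examples of intronic miRNAs were picked after their values were seen. Members and lists were chosen with earlier results of these data known. Sequences are from the deposited table and RefSeq, and 3′-UTRs from GENCODE 29, with 1 window per gene.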

Additional observations from a re-analysis of the deposited data

Results flagged for a closer look

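miR-372-3p, used here only for its weight in the AGS totals, was higher with the positive probe in HGC27 (log2 ratio 0.66) and lower in AGS (-1.31), so the lines lay in opposite directions, with a difference of 1.98 that was not tested. miR-103a-3p and miR-107 were lower with the positive probe in both lines.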

How the results depend on the processing

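The merge of both miRNAs, unrounded values, totals without the let-7 family and a filter within the line were chosen after seeing the data. Every log2 probe ratio of the pair kept its direction. For miR-103a-3p in HGC27 it was -3.74 with the table's totals, -3.76 under TMM, -3.90 with DESeq2 size factors, -3.74 without miR-372-3p and -3.20 without miR-372-3p and let-7. In AGS these were -2.97, -3.89, -4.36, -4.68 and -3.30. miR-107 in HGC27 was -1.93 without miR-372-3p and let-7 and -2.24 with a pseudocount of 10, where AGS gave -0.86. Both miRNAs merged gave -3.81 and -3.17. At least 100 counts left 64 and 56 depleted entries in HGC27 and AGS and 2 of 2 in the other miR-15/miR-107 group in HGC27, as fewer entries were kept. The main setting had 136 and 95 of 453 entries, so the counts are to be read against these different totals. Without miR-372-3p 170 of 453 entries and 4 of 6 in that group were depleted in AGS. Besides miR-15b-5p and miR-16-5p, only miR-15a-5p (3 and 0 counts) and miR-195-5p (3 and 2) of these 6 had AGS counts. So few counts leave the rise from 2 to 4 poorly fixed.

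Between the lines, miR-103a-3p was -0.10 with DESeq2 size factors, and -0.02 to 0.61 with 1 library left out (-0.02 without HGC27 positive), values with no test. miR-107 was 0.64 to 2.82 with 1 library left out and 4.26 and called with library totals. The 81 calls among 271 entries became 169 of 271 with library totals (154 higher in HGC27, 15 lower, against 60 and 21). With no filter, edgeR called 0 of 843, of which 95 had an unadjusted p-value under 0.05. DESeq2 gave 61 calls over 843 entries, but 539 of these had no adjusted p-value. Causes were not tested. Predicted end variants of the pair were not found, so merging them gave no value. The line comparison was blocked by probe, its covariate. Beyond that block, no paired analysis was possible because replicate numbers are missing from the labels and no group holds more than 1 library. Depth limits miR-107 in AGS most, at 4 counts.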
